A study of Mus musculus with 4 samples.

Results

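Kcnq1 and Kcne1, the 2 subunits of the potassium secretion channel of the stria vascularis, were followed through 3 captures of whole cells and 1 capture of nuclei. The members were found by symbol in the gene list of every library, as 2 of the 27998 genes listed in the cell captures and 2 of the 48816 listed in the nucleus capture; 27873 genes were in both lists. All 4 libraries came from the stria vascularis of postnatal day 30 (P30) CBA/J mice, an inbred strain, with no treatment or genetic change in any group. The stria was dissected from the lateral wall of the cochlea, dissociated with trypsin for the whole cells or lysed in detergent for the nuclei, and each suspension pooled several mice, whose number differs between the sources. The labels tie no capture to particular mice, while the methods of the study describe a pool of mice for each cell capture. A replicate is thus a capture of pooled mice, and p-values measure the spread between such captures.

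The stria vascularis is the epithelium that secretes potassium into the endolymph and generates the endocochlear potential on which hair cells depend. Kcnq1 encodes the pore-forming subunit of a voltage-gated potassium channel, and Kcne1 encodes a small single-pass membrane protein that joins the pore and slows its opening. In the apical membrane of marginal cells the complex is the exit for potassium that the sodium-potassium pump and the sodium-potassium-chloride cotransporter have brought in from the basolateral side. In the heart the same complex carries the slow delayed rectifier current, and loss of either gene in humans causes deafness with a long QT interval. Both genes are established marginal cell markers, so a high level there was known beforehand, and the measurements of interest were the balance of the subunits, how often a barcode held both, and what changed between cells and nuclei.

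Kcnq1 (ENSMUSG00000009545) lies on the plus strand at chr7:143106362-143427042 (GRCm38), a span of 320681 bases of which 4093 are exonic. Kcne1 (ENSMUSG00000039639) lies on the minus strand at chr16:92345982-92359468, a span of 13487 bases with 3214 exonic bases. The long noncoding RNA Kcnq1ot1 (ENSMUSG00000101609), which is transcribed in an imprinted cluster, occupies chr7:143203458-143296549 on the minus strand and so lies wholly inside Kcnq1. The sources used here do not state that counting used strand, and counts of Kcnq1 and Kcnq1ot1 are therefore uncertain where they overlap. All positions are from GENCODE M21.

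The libraries held 392, 1358 and 1580 barcodes of whole cells and 11057 barcodes of nuclei, with 2811309, 8113494, 8340882 and 22332501 unique molecular identifiers (UMIs, each standing for 1 captured transcript). After barcodes with under 200 genes and called doublets were removed, 377, 1314, 1461 and 9723 remained. Any pair of libraries shared 0 to 32 barcodes. Clusters were formed without Kcnq1, Kcne1 or any gene of the pathway lists below and named from markers that do not include them, but 1 clause of the naming rule was revised after the levels of both genes in each cluster had been seen. A cluster was called marginal-like, intermediate-like, basal-like or spindle/root-like from at least 3 raised markers of that type; the suffix is left out from here. Whole cells gave 142 marginal cells (19, 75 and 48 per capture), 998 intermediate cells, 110 basal cells and 22 spindle/root cells, and nuclei gave 2584 marginal, 1473 intermediate, 650 basal and 210 spindle/root nuclei. Most of the remaining barcodes stayed unnamed (188, 698 and 818 in the cell captures and 3875 nuclei). With the clause replaced by a count of the second type over all classes, the captures gave 12, 57 and 34 marginal cells, and the 39 cells left out are the sub-cluster with the highest levels of both genes, described below.

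The 6 marginal markers exclude the channel genes. They were the ones used to name the clusters, so their high level in marginal cells was fixed by the naming and is no separate check of it. All 6 marginal markers (Esrrb, Atp13a5, Heyl, Abcg1, Lrp2 and Bsnd, the last a chloride channel subunit) were detected in the marginal cells of every library, and together they reached 3354 to 3453 CPM (UMIs of a gene per 1000000 UMIs of the same barcodes) in the 3 cell captures and 7518 CPM in marginal nuclei. The same markers reached 40.9 to 77.8 CPM in intermediate cells and 118 to 355 CPM in basal cells. Spindle/root cells stood between, at 1100 CPM in capture 2 and 923 CPM in capture 3, and basal nuclei reached 1934 CPM. The part of these marginal transcripts in the channel levels of the other types was not tested.

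Both subunits were highest in marginal cells, in every capture and in the nuclei. Kcnq1 stood at 377, 336 and 424 CPM in the marginal cells of captures 1, 2 and 3 (379 ± 44.1, SD, n = 3) and at 1751 CPM in marginal nuclei. Kcne1 stood at 1302, 1157 and 1134 CPM (1198 ± 91.1, SD, n = 3) and at 990 CPM in marginal nuclei. No other main type reached these values in any sum used for testing, each of at least 5 cells. The marginal sums thus did not overlap with those of the other main types for either gene. How many other genes separate in this way was not counted. Single cells did overlap: 1 basal cell of capture 1 held 14 Kcnq1 and 24 Kcne1 UMIs, and 9 marginal cells held neither gene.

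In the fit over 11 sums of UMIs per capture and type, Kcnq1 was higher in marginal cells than in the mean of the other 3 types by 3.67 on the log2 scale (SE 0.159, adjusted p = 1.95e-27, edgeR quasi-likelihood test). Kcne1 was higher by 3.31 (SE 0.124, adjusted p = 1.74e-28). In this comparison 22.9% of the 7446 genes tested passed the threshold in one direction or the other. Because the types were clustered from the same cells, these p-values are too small.

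**Figure D1:**
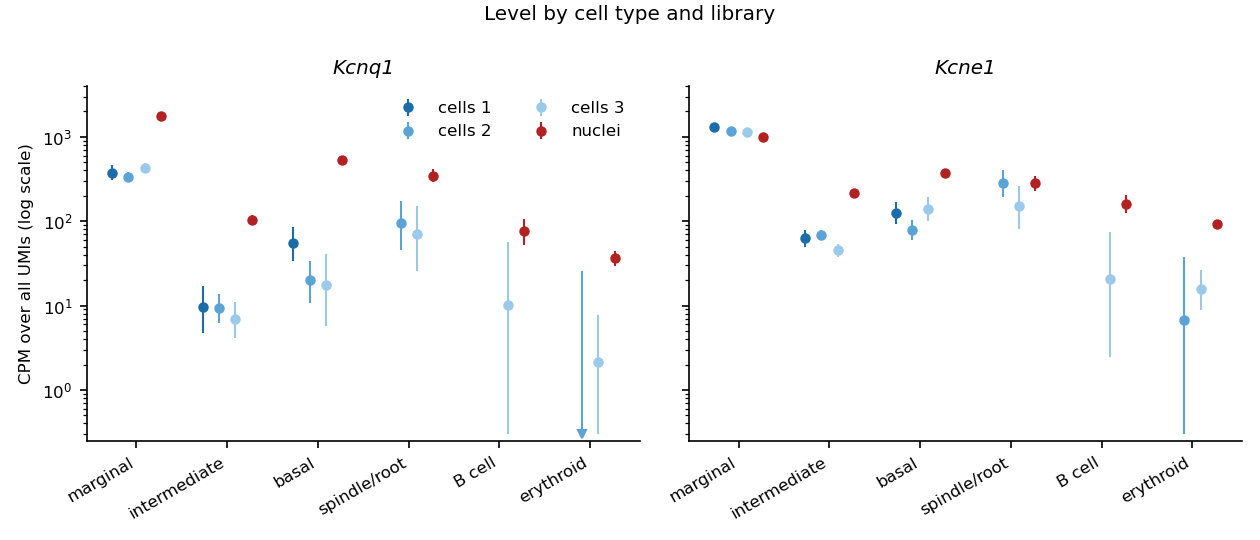
Level of Kcnq1 and of Kcne1 (CPM, log axis) by cell type, with 1 point per library; bars are exact 95% Poisson intervals, which cover counting error only. Marginal cells are highest in every library, Kcnq1 lies higher in nuclei than in cells in each of the 4 main types, and Kcne1 in marginal nuclei (990 CPM) lies below its 3 cell captures.

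Spindle/root cells, a joint group of spindle and root cells with Slc26a4 among its markers, came next in the sums. In capture 2 they held 94.9 CPM of Kcnq1 and 285 CPM of Kcne1, and in capture 3 they held 70.1 and 152 CPM. Capture 1 had 3 such cells and gave no sum. These levels rest largely on 1 cell per capture, which held 20 of the 30 Kcne1 UMIs and 4 of the 10 Kcnq1 UMIs in capture 2, and 12 of 13 and 4 of 6 in capture 3, while the median cell held 0 of either gene. Without that cell Kcnq1 was 69.5 and 33.5 CPM and Kcne1 was 116 and 16.8 CPM, a description of cells chosen by their level. Both genes were lower than in marginal cells, Kcnq1 by a log2 difference of 2.26 (SE 0.327, adjusted p = 2.62e-07) and Kcne1 by 2.5 (SE 0.240, adjusted p = 6.09e-12), where 14.8% of genes passed. The spindle/root cells also had 4 of 6 marginal markers raised, beside all 8 of their own.

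Basal cells, the flat cells joined by Cldn11 tight junctions, held Kcnq1 at 55.0, 19.8 and 17.6 CPM and Kcne1 at 126, 79.3 and 141 CPM. For Kcnq1, capture 1 was far above the other 2 captures. There 1 of the 22 basal cells held 14 of the 20 Kcnq1 UMIs and 24 of the 46 Kcne1 UMIs, and without it the levels were 18.6 and 68.3 CPM. Spindle/root cells were above basal cells by 1.36 for Kcnq1 (SE 0.502, adjusted p = 0.0504) and by 0.91 for Kcne1 (SE 0.314, adjusted p = 0.0363), where 17.5% of genes passed. Both calls depended on the capture left out. Without capture 1 the Kcnq1 difference passed (1.86, adjusted p = 0.0105) and that of Kcne1 did not (0.92, adjusted p = 0.0642), and without capture 2 they were 0.59 (adjusted p = 0.613) and 0.031 (adjusted p = 0.975). In the nuclei the order was turned, with basal nuclei at 526 CPM of Kcnq1 and 370 CPM of Kcne1 and spindle/root nuclei at 347 and 281 CPM. For Kcne1 in capture 3 the order of the cells rests on 1 spindle/root cell. Without it spindle/root cells held 16.8 CPM, below the 141 CPM of basal cells. Kcne1 in capture 2 and Kcnq1 in captures 2 and 3 kept the order of the cells without the highest spindle/root cell.

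Intermediate cells, the pigmented cells of the stria, were lowest of the 4 types. Kcnq1 stood at 9.56, 9.38 and 6.88 CPM (8.61 ± 1.50, SD, n = 3) and Kcne1 at 62.6, 68.8 and 45.1 CPM (58.8 ± 12.3, SD, n = 3). Marginal cells were above them by 5.14 for Kcnq1 (SE 0.183, adjusted p = 1.22e-31) and by 4.03 for Kcne1 (SE 0.147, adjusted p = 1.88e-29), where 35.5% of genes passed. Against basal cells the marginal excess was 3.62 for Kcnq1 (SE 0.213, adjusted p = 1.72e-21) and 3.41 for Kcne1 (SE 0.167, adjusted p = 1.69e-23), with 29.8% of genes passing.

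Spindle/root cells were also above intermediate cells, by 2.88 for Kcnq1 (adjusted p = 1.99e-05) and 1.53 for Kcne1 (adjusted p = 9.34e-05), where 23.8% of genes passed. Basal cells were above intermediate cells by 1.52 for Kcnq1 (adjusted p = 0.000317) and by 0.62 for Kcne1 (adjusted p = 0.010), where 32.8% passed. Single captures, and the single cells above, weigh on these calls. In capture 3 the spindle/root level of Kcne1 without its highest cell, 16.8 CPM, lay below the intermediate level of 45.1 CPM. Without capture 1 the basal excess over intermediate cells was 1.00 for Kcnq1 (adjusted p = 0.0841) and 0.57 for Kcne1 (adjusted p = 0.0927), and without capture 3 that of Kcne1 was 0.34 (adjusted p = 0.231). Without capture 2 the spindle/root excess of Kcne1 was 1.12 (adjusted p = 0.105). The basal excess of Kcne1 also lay in 1 sub-cluster. The basal cells fell into 56 cells with 40.4 CPM of Kcnq1, 167 CPM of Kcne1 and a median of 33.2% mitochondrial UMIs, and 54 cells with 13.7 CPM, 23.9 CPM and 17.9%. When barcodes over 50% mitochondrial UMIs were left out, Kcne1 was lower in basal than in intermediate cells, with a log2 difference of -1.63 (adjusted p = 0.000376), and the Kcnq1 difference of 1.15 no longer passed (adjusted p = 0.146). That setting clustered and named the cells again. It gave 9, 23 and 6 basal cells in captures 1, 2 and 3, where the main setting gave 22, 58 and 30.

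Blood cells, which should lack the channel, gave a reference for free RNA. Erythroid cells held no Kcnq1 UMI in capture 2 and 2.11 CPM in capture 3, with Kcne1 at 6.82 and 15.9 CPM, and intermediate cells were above both values for both genes. Over all captures B cells held 8.44 CPM of Kcnq1 from 1 UMI (exact 95% interval 0.214 to 47.0), which cannot be told apart from the intermediate level, and 25.3 CPM of Kcne1 (5.22 to 74.0). Macrophages held 0 Kcnq1 UMIs and 16.4 CPM of Kcne1 (4.47 to 42.04). In the nucleus capture, erythroid barcodes held 36.2 CPM of Kcnq1 and 91.6 CPM of Kcne1, and B cells held 76.1 and 159 CPM. Intermediate nuclei, at 104 CPM (95% interval 91.6 to 117) and 217 CPM (199 to 236), had intervals that overlapped those of the B cells for both genes (52.0 to 107 and 123 to 202). In CPM they lay above the erythroid values for both genes, but the erythroid barcodes were deeper. Their clusters had medians of 5250 and 5506 UMIs, against 1359.5 and 3259 in the intermediate clusters. The erythroid clusters held 54 and 42 Kcnq1 and 184 and 59 Kcne1 UMIs in 357 and 122 barcodes. The intermediate clusters held 225 and 34, and 388 and 154, in 1308 and 165 nuclei. Counted per barcode, intermediate nuclei as a whole thus did not exceed the erythroid barcodes for either gene.

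The balance of the subunits, taken as the Kcnq1 share of all Kcnq1 and Kcne1 UMIs, needs no scaling because both are counted in the same barcodes. In marginal cells the share was 22.4%, 22.5% and 27.2% (24.1 ± 2.74, SD, n = 3), so Kcne1 gave more UMIs than Kcnq1 in all 3 captures. In UMIs, which these 3' libraries count without regard to exon length, Kcne1 was at 3.45, 3.44 and 2.67 times Kcnq1. In marginal nuclei the share was 63.9% (exact 95% interval 63.0 to 64.7), with Kcne1 at 0.565 times Kcnq1 in UMIs. The majority subunit was thus Kcne1 in marginal cells and Kcnq1 in marginal nuclei, a contrast that rests on 1 nucleus library and was not tested.

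The Kcnq1 share was also higher in nuclei than in cells in the other main types. Basal cells gave 30.3%, 20.0% and 11.1%, with 21.4% in capture 1 without the single cell above, and basal nuclei gave 58.7% (55.6 to 61.8). Spindle/root cells gave 25.0% and 31.6% in captures 2 and 3, and spindle/root nuclei gave 55.2% (48.5 to 61.8). Intermediate cells gave 13.3%, 12.0% and 13.2%, and intermediate nuclei gave 32.3% (29.1 to 35.7), next to 32.3% in B cell nuclei and 28.3% in erythroid barcodes of the nucleus capture.

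Among whole cells the marginal share exceeded the intermediate share by 11.2 percentage points (9.20 to 14.0 over the captures; exact paired permutation test, two-sided p = 0.25, the smallest that 3 captures allow). Against basal cells the difference was 3.59 points and ran from -7.85 to 16.1 (exact p = 0.75), so these could not be told apart. Against spindle/root cells it was -3.42 points over 2 captures (exact p = 0.5, the smallest they allow).

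**Figure D2:**
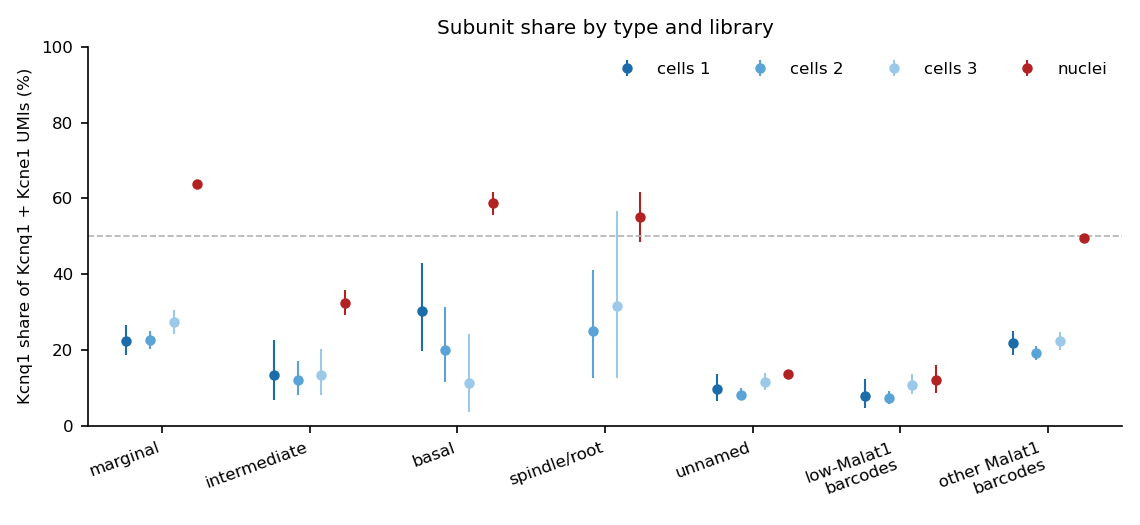
Kcnq1 share of Kcnq1 and Kcne1 UMIs (percent) by type, with 1 point per library and exact 95% binomial intervals. The cell captures lie under 50% in all 4 main types (11.1% to 31.6%), and marginal, basal and spindle/root nuclei lie above it (63.9%, 58.7% and 55.2%).

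Nearly every marginal cell held both transcripts. Of the 142 marginal cells, 129 had a UMI of both (90.8%, exact 95% interval 84.9 to 95.0), 4 had Kcne1 only, 9 had neither and 0 had Kcnq1 only, which allows a share of up to 2.11%. Per capture the share with both was 94.7%, 88.0% and 93.8%. The product of the separate shares, which unrelated detection would give, was 85.1%. The 9 cells with neither had a median of 3957 UMIs against 11661 in cells with both, and 8 of them lay in marginal sub-clusters 8.1 and 8.2.

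Marginal nuclei, sequenced to a median of 1392 UMIs against 11370 in marginal cells, were less often double. Of 2584, 1637 had both (63.4%, 61.5 to 65.2), 723 had Kcnq1 only (28.0%), 145 had Kcne1 only (5.61%) and 79 had neither (3.06%). Unrelated detection would give 63.0% with both, and the odds ratio was 1.23. Kcne1 was found in 69.4% of the nuclei with Kcnq1, and Kcnq1 in 91.9% of the nuclei with Kcne1. In erythroid barcodes of the nucleus capture, with a median of 5278 UMIs, 6.47% had both, and in B cell nuclei, with a median of 1569 UMIs, 5.31% had both.

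Every barcode was then thinned to 500 UMIs in a single random draw, with none left out. Of marginal cells 12.7% then had Kcnq1, 44.4% had Kcne1 and 8.45% had both, against 5.62% for unrelated detection. With captures 1, 2 and 3 drawn separately, 0%, 13.3% and 10.4% had both, against 1.94%, 9.46% and 8.25%. In capture 1 only 1 of 19 marginal cells then held Kcnq1, too few to show an excess or its absence. In a separate draw of 1000 UMIs, 31.6% of the marginal cells of capture 1 had both, against 19.9% for unrelated detection. In capture 2 the values were 12.0% and 11.8%. Over the 3 captures the mean share with both in that draw was 18.7% (SD 11.2), so the value of capture 1 lay far above the mean. An excess common to the captures is not shown. In the draw of 500 UMIs 59.2% of marginal nuclei had Kcnq1, 35.1% had Kcne1 and 20.5% had both, against 20.8%. Joint detection in marginal nuclei thus lay close to the product of the separate shares, with all UMIs and at 500 UMIs. The values that follow are also for 500 UMIs. Of intermediate nuclei 4.96% had Kcnq1 and 9.78% had Kcne1. B cell nuclei had 4.83% (2.34 to 8.70) and 12.6% (8.37 to 17.9), and erythroid barcodes had 1.46% (0.590 to 2.99) and 6.47% (4.44 to 9.06). Intermediate nuclei thus lay within the B cell intervals for both genes and above the erythroid values. Thinning kept a smaller part of the UMIs of the erythroid barcodes, which were deeper. Of intermediate cells 0.200% had Kcnq1 and 2.30% had Kcne1, where 0 of 100 erythroid cells had Kcnq1 and 1.00% had Kcne1.

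**Figure D3:**
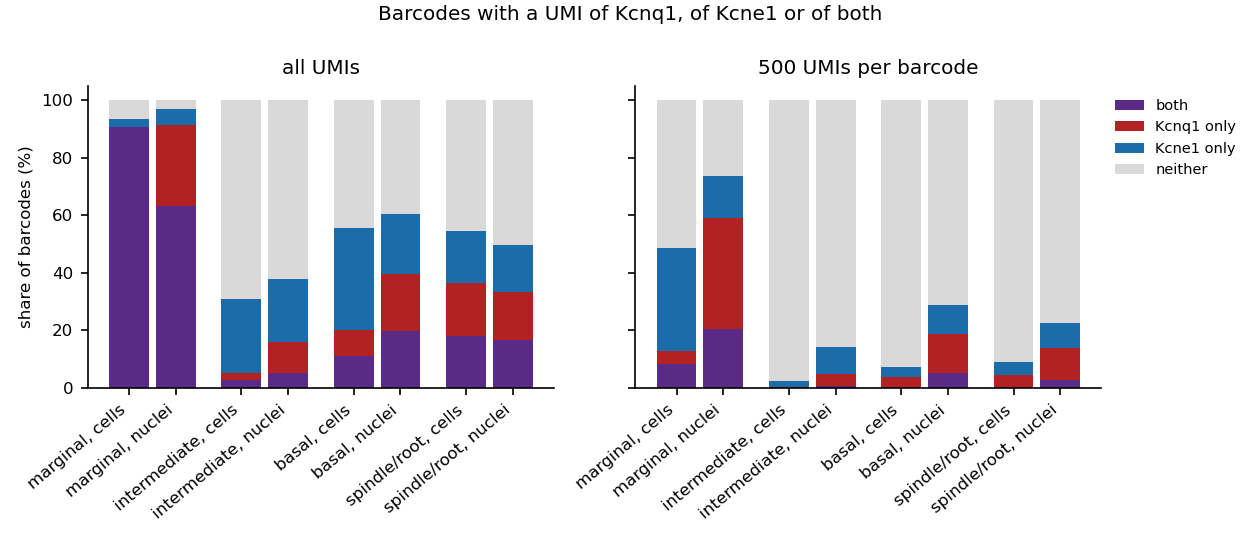
Share of barcodes (percent) with UMIs of both genes, of Kcnq1 only, of Kcne1 only or of neither, stacked to the whole for each type in cells and in nuclei, with all UMIs on the left and 500 UMIs per barcode on the right. With all UMIs 90.8% of marginal cells and 63.4% of marginal nuclei hold both, and at 500 UMIs the shares with both are 8.45% and 20.5%.

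Marginal cells varied among themselves. A single marginal cell held a median of 5, 3 and 4 Kcnq1 UMIs and 15, 13 and 12 Kcne1 UMIs in captures 1, 2 and 3, with up to 13 and 41. Across the 142 cells the quartiles were 192 and 548 CPM for Kcnq1 and 692 and 1667 CPM for Kcne1. The 3 sub-clusters ordered the same way for both genes, at 318, 379 and 506 CPM of Kcnq1 and 860, 1115 and 2172 CPM of Kcne1. The highest (39 cells) had a median of 10.6% mitochondrial UMIs, where the others had 28.2% and 31.8%, and its Kcnq1 share was the lowest at 18.9%, against 27.0% and 25.4%. Whether the mitochondrial share sets these levels was not tested.

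The nuclei fell into 2 marginal clusters that differed in the opposite sense for the 2 subunits. The larger (2234 nuclei, median 1.64% mitochondrial UMIs) held 1869 CPM of Kcnq1 and 836 CPM of Kcne1, and the smaller (350 nuclei, median 9.60%) held 1402 and 1444 CPM. The Kcnq1 share was 69.1% in the first and 49.3% in the second. Over bins of the mitochondrial share, from under 1% through 1 to 5%, 5 to 20% and 20 to 50%, Kcnq1 stood at 1946, 1905, 1599 and 1154 CPM. Kcne1 in the same bins was 668, 857, 1372 and 1000 CPM, highest in the third. The Kcnq1 share went from 74.4% to 69.0%, 53.8% and 53.6%. Nuclei with more mitochondrial UMIs thus had a subunit balance nearer that of whole cells. These bins are a description of 1 library, and the part of cytoplasmic RNA in them was not tested.

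Malat1 is an abundant noncoding RNA that stays in the nucleus, and a barcode with under 0.2% of its non-mitochondrial UMIs from Malat1 was called low-Malat1. Of the barcodes with at least 500 such UMIs, 46.2%, 42.3% and 41.7% were low-Malat1 in the cell captures and 3.38% in the nuclei. Of the low-Malat1 barcodes in cells, 92.4%, 94.4% and 89.7% were unnamed, and 4 marginal cells, all in capture 3, were among them. No comparison within marginal cells could therefore be made over captures. Those 4 cells held 462 CPM of Kcnq1 and 1772 CPM of Kcne1, with a Kcnq1 share of 20.7% (11.2 to 33.4).

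The low-Malat1 barcodes of whole cells held Kcne1 with little Kcnq1. Over all UMIs Kcne1 stood at 299, 370 and 223 CPM in them and at 273, 275 and 182 CPM in the other barcodes, slightly higher in every capture. Kcnq1 stood at 25.2, 28.6 and 27.0 CPM and at 75.8, 65.0 and 52.0 CPM, lower in every capture. Over non-mitochondrial UMIs the Kcne1 gap was wider, at 606 ± 175 CPM against 354 ± 77.5 (SD, n = 3). On that scale Kcnq1 was 54.6 ± 5.06 against 93.2 ± 16.5 CPM. Kcnq1ot1 stood at 1.57, 1.34 and 3.86 CPM in low-Malat1 barcodes and between 90.5 and 112 CPM in the others. The Kcnq1 share was 7.77%, 7.19% and 10.8% in low-Malat1 barcodes and 21.7%, 19.1% and 22.2% in the others, a difference of -12.4 percentage points (-13.9 to -11.4; exact paired permutation test, two-sided p = 0.25, the smallest that 3 captures allow).

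Among unnamed barcodes alone, the share was 8.10% in low-Malat1 and 13.4% in other barcodes, a difference of -5.35 points (-6.15 to -3.83; exact p = 0.25). These barcodes are not free of cell type. An unnamed cluster of 332 barcodes scored highest for marginal markers, with 1 of 6 raised, and held 160 Kcnq1 and 1468 Kcne1 UMIs. The unnamed cluster with the next most held 33 and 432. Malat1 was under 0.2% in 57.5% of the first and 92.3% of the second. The part of the first cluster in the difference was not tested. Unnamed barcodes as a whole also carried the 6 marginal markers, at 255 to 354 CPM. Their Kcne1 UMIs were 94.1% to 106% of their marginal marker UMIs, against 33.3% to 38.8% in marginal cells. Their Kcnq1 UMIs were 9.12% to 12.4% of the markers, against 9.74% to 12.5% in marginal cells. Relative to the markers, unnamed barcodes overlapped with marginal cells in Kcnq1 and exceeded them in Kcne1 in all 3 captures. This was not particular to unnamed barcodes. Intermediate cells gave 88.4% to 110% for Kcne1 and 12.1% to 16.8% for Kcnq1. For Kcne1 basal cells gave 35.7% to 85.1%, and spindle/root cells, at 16.5% and 25.9%, lay below marginal cells.

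The test of low against other Malat1 depended on scaling. Scaled by the trimmed mean of M-values (TMM), Kcne1 was higher in low-Malat1 barcodes by 1.31 on the log2 scale (SE 0.0858, adjusted p = 3.63e-11) and Kcnq1 differed by -0.13 (SE 0.154, adjusted p = 0.522), where 43.7% of 9469 genes passed. On total UMIs without TMM, an alternative chosen after the data were seen, Kcne1 differed by 0.22 (adjusted p = 0.0559) and Kcnq1 by -1.23 (adjusted p = 8.32e-15). That scaling moved the median of all genes from -0.05 to -1.15, and the calls from 2220 higher and 1914 lower to 103 and 8018; DESeq2 called 1340 higher and 749 lower. Under both, Kcne1 lay above the median gene and Kcnq1 lay near it.

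In the nucleus capture the low-Malat1 barcodes were few and of other kinds. Of 304, 175 were erythroid and 127 unnamed, and none was marginal. They held 31.5 CPM of Kcnq1 and 230 CPM of Kcne1, against 576 and 589 CPM in the other barcodes, with a Kcnq1 share of 12.0% (8.70 to 16.1) against 49.4%. Over bins of the Malat1 share of all nuclei, below 0.2%, 0.2 to 0.5%, 0.5 to 2.5%, 2.5 to 10% and above 10%, the Kcnq1 share was 12.0%, 11.3%, 15.7%, 51.0% and 65.7%. The step lay between the third and the fourth bin. Within marginal nuclei it was 43.0% (14 nuclei), 54.1% and 68.3% in the 3 highest bins, and the 2 lowest held no marginal nucleus.

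**Figure D4:**
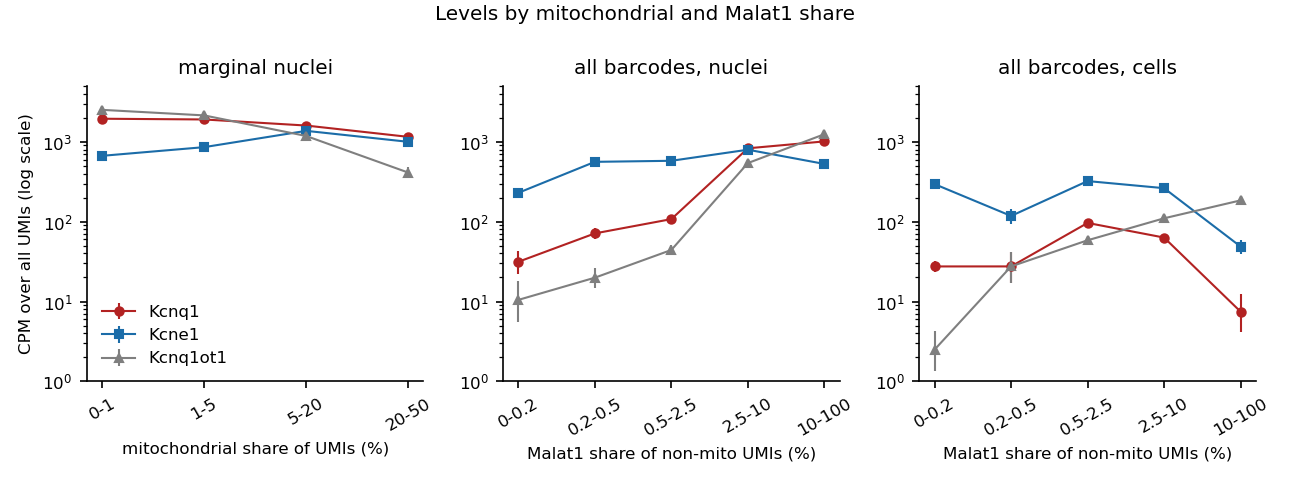
Kcnq1, Kcne1 and Kcnq1ot1 (CPM, log axis) by mitochondrial share in marginal nuclei, and by Malat1 share in all barcodes of nuclei and of cells; bars are exact 95% Poisson intervals. In marginal nuclei Kcnq1 goes from 1946 to 1154 CPM and Kcne1 peaks at 1372 CPM in the third bin, and over Malat1 in nuclei Kcnq1 climbs from 31.5 to 1012 CPM.

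Between preparations the Kcnq1 level of marginal cells differed more than that of Kcne1. Kcnq1 was 4.72 times as high in marginal nuclei (1751 CPM, 95% interval 1712 to 1790) as over the marginal cells of all captures (371 CPM, 341 to 402). Kcne1 was 0.84 times as high (990 CPM, 960 to 1020, against 1174 CPM, 1121 to 1229). With the second type counted over all classes in naming, which leaves out the 39 marginal cells with the highest levels, the Kcnq1 ratio was 5.13 and the Kcne1 ratio was 1.04, so the direction for Kcne1 depends on those cells. Over non-mitochondrial UMIs the ratios were 3.69 and 0.66, beside a median of 0.774 over the 7074 genes with at least 20 UMIs in each. Of those genes 95.2% had a lower ratio than Kcnq1, and 42% a lower ratio than Kcne1. With 1 nucleus library, no test of these ratios was possible.

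Both ratios lay near the median for genes of their length. Of the 161 genes longer than 300 kb, 42.9% had a lower ratio than Kcnq1, and the median was 4.32. Of the 2222 genes of 10 to 30 kb, 52.6% had a lower ratio than Kcne1, and the median was 0.637. Over all length bins the median ratio went from 0.483 under 10 kb to 0.637, 1.00, 1.89 and 4.32. The sources used here do not say whether intronic reads were counted in the nuclei, and the gene lists of the 2 preparations differ.

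**Figure D5:**
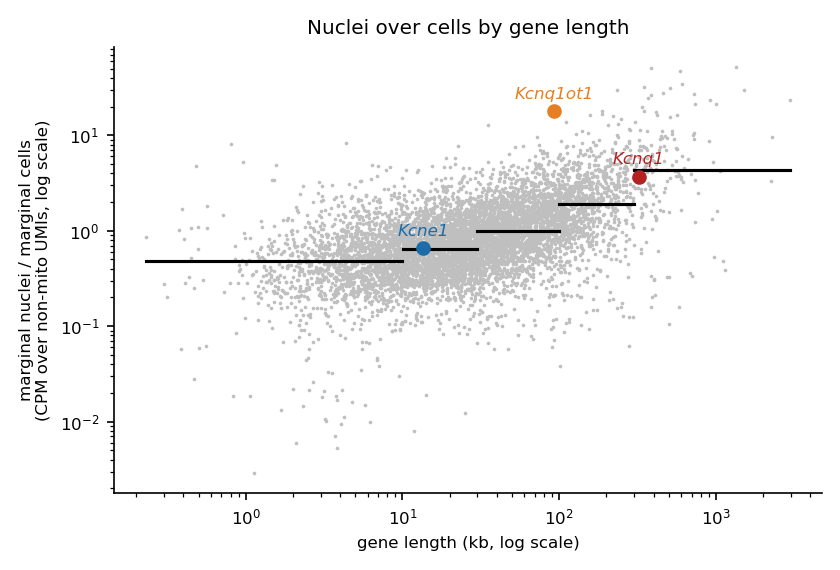
Ratio of marginal nuclei to marginal cells (CPM over non-mitochondrial UMIs, log axis) against gene length (kb, log axis) for 7074 genes, with the median of 5 length bins. Kcnq1 (3.69) and Kcne1 (0.66) lie near the medians of their bins (4.32 and 0.637), and Kcnq1ot1 (17.9) lies above nearly all genes of its bin.

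In the other types Kcnq1 was higher in nuclei than over the cell sums used for testing, and so was Kcne1 in intermediate and basal nuclei. Kcnq1 was 12.3 times as high in intermediate, 18.3 times in basal and 4.14 times in spindle/root nuclei, and Kcne1 was 3.72, 3.53 and 1.25 times as high. In each of the 4 types the Kcnq1 ratio was the larger. The blood cells used as a reference for free RNA were also higher in nuclei. Erythroid barcodes held 1.83 CPM of Kcnq1 in cells, and 28.9 and 53.3 CPM in their nucleus clusters. For Kcne1 they held 14.6 CPM, and 98.6 and 74.9 CPM. B cells went from 8.44 to 76.1 CPM of Kcnq1 and from 25.3 to 159 CPM of Kcne1. The part of free RNA in the ratios of the main types was not tested. The Kcne1 ratio of spindle/root has no firm direction: the nuclei held 281 CPM, capture 2 alone held 285 CPM, capture 3 held 152 CPM, and all 22 spindle/root cells, capture 1 included, held 309 CPM.

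Kcnq1ot1, the transcript inside Kcnq1, did not follow the channel in whole cells. It stood at 75.2 ± 16.2 CPM in marginal cells (SD, n = 3), 94.1 ± 9.46 in intermediate and 236 ± 50.9 in basal cells, and was lower in marginal than in basal cells by a log2 difference of -1.67 (SE 0.182, adjusted p = 3.16e-11). In nuclei it was highest in marginal nuclei at 1762 CPM, against 1011 in basal, 388 in spindle/root and 123 in intermediate nuclei. Its marginal ratio of nuclei to cells was 17.9 over non-mitochondrial UMIs, above 99.7% of genes. In marginal nuclei Kcnq1ot1 and Kcnq1 had nearly equal UMIs (7699 and 7651), and 79.6% of the nuclei held both. Its UMIs were 0.13 to 0.26 times those of Kcnq1 in marginal cells and 9.18 to 13.0 times in intermediate cells, so in whole cells the counts of the pair did not move together. How far reads of either transcript entered the count of the other was not tested.

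Of the remaining genes of the pathway, the other Kcne subunits were sparse. None of the 4 Kcne relatives (Kcne2, Kcne3, Kcne4 and Kcne1l) had enough UMIs to be tested between types, and neither did Kcnq5, a relative of the pore subunit. In marginal cells Kcne2, Kcne4 and Kcne1l had 0 UMIs, which allows up to 1.93 CPM, and Kcne3 had 1 UMI. In marginal nuclei all 4 had 0 UMIs, which allows up to 0.686 CPM. Kcnq5 was at 11.4 CPM in marginal nuclei and reached 1569 CPM in spindle/root nuclei and 982 CPM in B cell nuclei. None of these 5 relatives came near either subunit in marginal nuclei.

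The basolateral list, whose proteins load potassium and recycle chloride, was mostly higher in marginal cells. Of 9 genes 8 were tested against the other types, with 5 higher, 1 lower and 2 not called, and a median log2 difference of 1.25 beside 0.05 over all genes. Over all genes tested, 14.4% were higher and 8.47% were lower in marginal cells. Atp1b2, a beta subunit of the sodium-potassium pump, stood at 4356, 4109 and 4080 CPM in marginal cells and at 64.2 to 83.8 CPM in intermediate cells, a difference from the other types of 3.96 (SE 0.112, adjusted p = 2.66e-34). Slc12a2, the sodium-potassium-chloride cotransporter, was higher by 1.88 (SE 0.108, adjusted p = 8.60e-21). Stk39, a kinase that activates the cotransporter, was higher by 1.52. Atp1b1, another beta subunit of the pump, was lower by a log2 difference of -0.61 (SE 0.113, adjusted p = 2.32e-05). Singly it was -1.75 against intermediate and -0.48 against basal cells, and 0.41 against spindle/root cells, where it did not pass. Wnk1 and Oxsr1 did not pass, at -0.22 and -0.12.

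Of 16 channel regulators 15 were tested, with 3 higher, 2 lower and 10 not called, beside 14.4% higher and 8.47% lower over all genes, and a median of -0.04. Sgk1, a kinase known to raise the channel's surface level, stood apart at 407, 611 and 569 CPM in marginal cells against 18.4 to 26.9 CPM in intermediate cells, and was higher than in the other types by 3.17 (SE 0.138, adjusted p = 2.56e-27). Prkar2a, a regulatory subunit of protein kinase A, was higher by 0.95 (adjusted p = 8.89e-05). Calm2 and Calm3 encode calmodulin, which binds the pore subunit. Calm2 was higher by 0.50, and Calm3 was lower, at -0.81. Both are means over types that differ. Calm2 was 1.03 against basal and 0.97 against intermediate cells, but -0.49 against spindle/root cells, all past the threshold. Calm3 was -1.04 against basal and -1.25 against spindle/root cells, and -0.13 against intermediate cells, where it did not pass. Akap9, the anchor that holds protein kinase A at the channel, was at 0.07, and Nedd4l, a ubiquitin ligase of the channel, was at 0.04 (neither passed).

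Neighbours on the chromosome did not move as blocks. Of 8 neighbours of Kcnq1, 5 were tested against the mean of the other types. Cd81 and Tssc4 were higher by 0.88 and 1.51, Kcnq1ot1 and Cdkn1c were lower at -0.75 and -1.64, and Nap1l4 was not called. Beside these, 22.9% of all genes were called in either direction. The Cdkn1c mean hides opposite signs, with -4.87 against basal cells and 1.65 against intermediate cells, both past the threshold. Against spindle/root cells Cdkn1c was -1.70 and Kcnq1ot1 was 0.05, and neither passed. Of 4 neighbours of Kcne1, 2 were tested, with Rcan1, a calcineurin regulator, higher by 4.57 (SE 0.438, adjusted p = 6.75e-13) and Smim11 at -0.25 (adjusted p = 0.352). The Rcan1 value is a mean over types that differ widely. It was 9.11 (SE 1.57) against spindle/root cells, whose sums rest on 10 and 9 cells. Against basal and intermediate cells it was 2.27 and 2.32.

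The genes most like each subunit were ranked by the smaller of 2 Pearson correlations of log2(CPM + 1), over the 11 type sums of cells and over 9 named types of nuclei, among 7303 genes. For Kcnq1 they were Enpep, Ank3, Slc25a25, Igf1 and Atp2b1, with a smaller r of 0.97 to 0.96. For Kcne1 they were Dnase1, Spp1, Atp1b2, Abca2 and Slc41a3, with 0.98 to 0.96. The 2 subunits correlated with each other at 0.97 in cells and 0.89 in nuclei, and each was not the nearest gene to the other: Kcne1 ranked 61st for Kcnq1 and Kcnq1 ranked 38th for Kcne1. These points share libraries and depth, and each r is a description.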

How the data were processed

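The deposited files hold UMI counts per gene and barcode, which the authors made from 10x Genomics 3' version 2 libraries; per the submitters' processing notes this used Cell Ranger 2.0.0 and mm10. The methods of the study state default settings for Cell Ranger. Neither intron counting nor strand is named in the sources used here. The members and gene lists were chosen with earlier results of these data known.

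Barcodes with under 200 genes were dropped and doublets were called with Scrublet (scanpy 1.11.5) at 0.8% per 1000 barcodes, which removed 1, 15, 20 and 978. Cells and nuclei were clustered separately in Seurat 5.3.0 (2000 variable genes, resolution 0.8, principal components by JackStraw). Clusters were named from fixed markers, and those with at least 3 raised markers of 2 or more types were clustered again (10 components). A marker counted as raised at 2 times the other barcodes and in 10% of the cluster. The type with the highest mean marker log2 fold gave the name where at least 3 of its markers were raised and any second type with 3 raised markers scored under 0.67 of it; this last clause was revised after the levels of the 2 genes in each cluster had been seen. CPM is UMIs per 1000000 UMIs of the barcodes named, mitochondrial UMIs included.

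UMIs were summed per capture and type and tested with edgeR 4.0.16 (quasi-likelihood, TMM, filterByExpr, capture as block, R 4.3.3), with Benjamini-Hochberg adjustment over all genes tested and a threshold of 0.05. Sums of a capture come from the same suspension and so are paired; the correlation of their deviations over 2083 genes was -0.01 to 0.34. Intervals are exact at 95%, binomial for shares and Poisson for levels, and they and the limits that a count of 0 allows (3 counts) cover counting error only. On simulated counts for marginal against the other types (6441 genes) the test recovered 84 of 96 genes changed by 4-fold and 26 of 91 changed by 2-fold, with 6 false calls. For low against other Malat1 (9282 genes) it recovered 91 of 96 and 39 of 99, with 4 false calls. The simulated sums shared the same profile apart from the changed genes, with as many raised as lowered. A wide shift like that of the real Malat1 comparison, where 43.7% of genes passed, was not simulated. The few false calls therefore do not carry over to that comparison.

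Named were both members, the 45 pathway genes fixed as lists where a result turns on them, and for each member the 5 genes of most similar pattern. Alternatives changed doublet removal, clustering, filters, scaling, the test (DESeq2 1.42.0), the block, the Malat1 limits and the captures used. Some genes of the lists are counted but not reported singly here. Positions come from GENCODE M21.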

Additional observations from a re-analysis of the deposited data

Results flagged for a closer look

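In 9 results the nucleus capture went the opposite way to every cell capture, or lay on the other side of an equal share. With 1 nucleus library none of these differences was tested.

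Of these, 3 concern Kcnq1ot1. Its log2 difference of CPM between marginal and intermediate was 3.83 in nuclei and -0.65 to -0.13 in the 3 cell captures. Between marginal and basal it was 0.80 in nuclei and -2.35 to -1.27 in cells. Between intermediate and spindle/root it was -1.65 in nuclei and 0.13 to 0.30 in the 2 cell captures with spindle/root sums. Basal against spindle/root turned for both subunits, with Kcnq1 at 0.60 in nuclei and -2.26 to -2.00 in cells, and Kcne1 at 0.40 in nuclei and -1.84 to -0.11 in cells. For Kcne1 the turn in capture 3 rests on 1 spindle/root cell, without which spindle/root cells held 16.8 CPM against 141 CPM in basal cells. For Kcne1 in low against other Malat1 barcodes, the difference was -1.36 in nuclei and 0.13 to 0.43 in cells; the low-Malat1 barcodes of nuclei were mostly erythroid (57.6%), and those of cells mostly unnamed.

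The Kcnq1 share of both subunits was above 50% in marginal (63.9%), basal (58.7%) and spindle/root nuclei (55.2%), and below it in every cell capture of the same types.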

How the results depend on the processing

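The marginal excess of both genes over the other types, and over each type singly, kept its direction and stayed past the threshold under all alternatives that gave a value. Without one capture in turn it was 3.40 to 3.92 for Kcnq1 and 3.21 to 3.47 for Kcne1 against the other types. Alternatives chosen after seeing the data were total UMIs with no TMM scaling, a second type counted over all classes in naming, leaving out the marginal nucleus cluster with more mitochondrial UMIs, a Malat1 limit of 2.5% in nuclei, and unnamed barcodes only. Without sub-clustering no marginal cells were named, and low-Malat1 marginal cells were too few for a comparison within the type, so neither was run. Where no cause is given, it was not tested.

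Spindle/root against basal changed its call under several alternatives. For Kcnq1 (1.36) it passed with no TMM scaling (1.58), with DESeq2 size factors in edgeR (1.37), without the replicate block (1.32, adjusted p = 0.0444), at resolution 0.4 (1.36) and 1.2 (1.28) and with the second type counted over all classes (2.42), and leaving out captures it was 0.59 to 1.86, past the threshold without capture 1. For Kcne1 (0.91) it failed with DESeq2 (0.84), with no filter on low counts (0.71) and at 500 genes per barcode (0.40), and leaving out captures it was 0.031 to 1.34, failing without capture 1 or capture 2. Spindle/root against intermediate for Kcne1 was 1.12 to 1.67 leaving out captures and failed without capture 2. Basal against intermediate was 1.00 to 2.05 for Kcnq1 and 0.34 to 1.09 for Kcne1 leaving out captures; Kcnq1 failed without capture 1, and Kcne1 failed without capture 1 or capture 3. With barcodes over 50% mitochondrial UMIs left out, and with the second type counted over all classes, Kcnq1 failed (1.15 and 0.39) and Kcne1 reversed (-1.63 under both). Both settings named fewer basal cells per capture: 9, 23 and 6 in the first, and 9, 32 and 13 in the second. The replicate block changed no other call.

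For low against other Malat1, Kcnq1 was -1.23 and Kcne1 0.22 with no TMM scaling. Kcnq1, which did not pass, changed sign among unnamed barcodes (0.12) and without capture 1 (0.013; the lowest was -0.37).

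In marginal cells Kcnq1 was 517 CPM and Kcne1 1632 CPM over non-mitochondrial UMIs, and Kcne1 was 940 CPM with the second type counted over all classes. The share with both subunits was 97.2% with no removal of doublets, 96.5% at resolution 1.2, 96.7% with the second type counted over all classes, and, as a mean over captures, 18.7% at 1000 and 7.92% at 500 UMIs; leaving out captures it was 90.9% to 94.2%.

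In marginal nuclei Kcnq1 was 1658 CPM with no removal of doublets and 1880 CPM over non-mitochondrial UMIs. Kcne1 was 941 CPM at 500 genes per barcode and 1063 CPM over non-mitochondrial UMIs. Without the cluster with more mitochondrial UMIs, Kcnq1 was 1869 CPM, Kcne1 836 CPM, the Kcnq1 share 69.1% and the share with both 59.8%. The Kcnq1 share was 62.9% with no removal of doublets and 65.4% at 500 genes per barcode, and the share with both was 20.5% at 500 UMIs. The ratio of nuclei to cells was 3.69 for Kcnq1 and 0.66 for Kcne1 over non-mitochondrial UMIs, and for Kcne1 1.04 with the second type counted over all classes and 0.71 without the cluster with more mitochondrial UMIs.

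The Kcnq1 share of low-Malat1 barcodes in nuclei was 19.3% at a limit of 0.1%. That of the other barcodes was 13.4% in cells among unnamed barcodes. In nuclei it was 50.2% with no removal of doublets, 51.4% at 500 genes, 52.9% without barcodes over 50% mitochondrial UMIs, 53.1% at a limit of 0.5%, 54.6% at 1000 non-mitochondrial UMIs, 13.8% among unnamed barcodes and 61.5% at a limit of 2.5%.

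Counts of genes called moved by over 1.5 times in 11 cases. Marginal against spindle/root (1105) gave 550 without capture 3, 587 with at least 10 cells per sum and 1675 at 500 genes per barcode. Spindle/root against basal (1303) gave 690 and 686, and against intermediate (1775) 1080 and 1098, without capture 3 and with at least 10 cells per sum. Low against other Malat1 (4134) gave 8121 with no TMM scaling, 2089 with DESeq2, 2538 without barcodes over 50% mitochondrial UMIs and 1727 among unnamed barcodes. With no TMM scaling the calls for marginal against intermediate went from 1415 higher and 1226 lower to 2519 and 713, for basal against intermediate from 1292 and 1147 to 1921 and 699, and for spindle/root against intermediate from 1017 and 758 to 1529 and 413.

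Depth limits the nuclei: at a median of 1392 UMIs a marginal nucleus held a median of 1 Kcne1 UMI, so nuclei without a UMI of it are not shown to lack it. The spindle/root sums rest on 10 and 9 cells.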
